A study of Mus musculus with 15 samples.

Results

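The secreted carrier and apolipoprotein genes of the fetal liver parenchyma were higher in TER119+ than in TER119- cell fractions of mouse fetal liver, by 8.67-fold to 36.4-fold in wild type. These folds ran from 5.74-fold to 27.4-fold without WT TER119- replicate 1. Among TER119- arrays the secreted products varied by 3.93-fold to 15.9-fold and rose and fell together from array to array. The set comprised 10 genes, listed by name under a rule that uses no measured value, although the list was drawn up with earlier results of these data known: Alb, Afp, Trf, Serpina6, Ttr and Rbp4, which encode carriers of blood plasma, Apoa1, Apoa2 and Apob, which encode apolipoproteins, and Hnf4a, which encodes a transcription factor of the same cells. All 10 were found among the 19938 genes with a named probe set, and each was read by 1 probe set.

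Hepatoblasts are the fetal liver cells that give rise to hepatocytes and bile duct cells. They surround the blood-forming islands of the organ at mid-gestation, and they already secrete the proteins that carry fatty acids, iron, hormones, retinol and lipids in fetal blood. HNF4A, together with the FOXA proteins and the C/EBP proteins, is a regulator that binds near many of these genes.

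Livers were taken at E14.5, in days of embryonic development, from FVB/NJ mice. They were wild type (WT) or labelled Klf3 KO, for a knockout of Krüppel-like factor 3, a transcription repressor that binds CACCC sequences. Magnetic beads against TER119, an antigen of maturing red cell precursors, gave a TER119+ fraction by positive selection and a TER119- fraction by depletion. The groups held 4 WT TER119+, 3 KO TER119+, 4 WT TER119- and 4 KO TER119- arrays. No treatment or other allele is named in the labels, which also do not say which part of Klf3 was deleted or whether replicates came from separate embryos or litters. What the p-values measure is therefore only how far these samples differ within a group, possibly for technical reasons, and precision is limited by the small number of arrays.

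Arrays of a group correlated at 0.965 to 0.992 over all probe sets. The Klf3 probe set did not separate the genotypes: its mean log2 value was 10.22 in WT and 10.47 in KO TER119+ arrays (adjusted p = 1) and 8.38 in WT and 8.34 in KO TER119- arrays (adjusted p = 0.947). A probe set outside the deleted part checks nothing, so KO names the label throughout. Among TER119- arrays the leading principal component held 54.2% of the variance, and 3 arrays, WT replicate 2, WT replicate 4 and KO replicate 4, lay away from the other 5 on it. The members' differences, spread and correlations, and the counts over lists and neighbouring genes, are given with and without these 3. Defining markers bore out the TER119 label in part: 17 of 17 measured erythroid markers were higher in WT TER119+ than in WT TER119- arrays, with a median difference of 3.09 on the log2 scale. Most markers of other liver cells were higher in the WT TER119+ fraction too. These were 13 of 14 for macrophages, 9 of 12 for endothelium, with 1 lower, and 12 of 13 hepatoblast surface and keratin genes. In bulk samples, fewer cells of a type and less RNA per cell cannot be told apart.

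The stretches before the transcription starts of 4 members with 1 start each in the RefSeq promoter table are shown as examples. They are the 250 bases before the RefSeq start on the plus strand of build GRCm38.p6, 5′ to 3′, at chr5:90460620-90460869 for Alb, chr5:90490464-90490713 for Afp, chr9:46228380-46228629 for Apoa1 and chr12:7977427-7977676 for Apob. Capitals mark matches on either strand to TGTTTNC (a FOXA core) and TTGCNNAA (a C/EBP core), which do not overlap in these 4 stretches.
Alb: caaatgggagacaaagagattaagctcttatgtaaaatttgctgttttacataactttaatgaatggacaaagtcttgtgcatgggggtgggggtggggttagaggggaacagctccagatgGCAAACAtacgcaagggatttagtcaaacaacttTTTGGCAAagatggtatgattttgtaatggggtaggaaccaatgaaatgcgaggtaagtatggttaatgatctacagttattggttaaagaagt
Afp: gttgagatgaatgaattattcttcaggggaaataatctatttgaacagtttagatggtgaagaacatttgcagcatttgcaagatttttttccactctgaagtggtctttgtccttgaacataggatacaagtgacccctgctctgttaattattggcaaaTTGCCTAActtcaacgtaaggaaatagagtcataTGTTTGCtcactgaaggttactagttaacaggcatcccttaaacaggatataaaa
Apoa1: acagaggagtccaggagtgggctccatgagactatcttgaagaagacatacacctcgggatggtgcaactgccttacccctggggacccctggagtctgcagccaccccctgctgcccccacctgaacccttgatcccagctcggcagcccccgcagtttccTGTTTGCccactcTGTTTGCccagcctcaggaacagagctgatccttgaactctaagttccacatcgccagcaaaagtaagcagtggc
Apob: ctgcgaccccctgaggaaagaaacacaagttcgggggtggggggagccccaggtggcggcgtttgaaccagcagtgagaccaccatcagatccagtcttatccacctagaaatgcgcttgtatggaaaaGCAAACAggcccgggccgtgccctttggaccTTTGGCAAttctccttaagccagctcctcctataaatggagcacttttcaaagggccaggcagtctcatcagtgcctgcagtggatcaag

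The RefSeq promoter table held 10 starts of 7 members; Trf, Serpina6 and Ttr were not matched. Alb and Afp, which lie next to each other on the same strand, each carried a match to both motifs. In Alb the FOXA core lay at -128 to -122 and the C/EBP core at -94 to -87, counted from -1 at the base before the start. In Afp their order differed: the C/EBP core lay at -89 to -82 and the FOXA core at -55 to -49. Apoa1 had a pair of FOXA cores at -88 to -82 and -75 to -69, and Apob had a FOXA core at -121 to -115 and a C/EBP core at -90 to -83. The FOXA core was found before 7 of the 10 starts, against 17.8% of the 32851 promoters of the same length. Each of the 7 members had it at 1 or more starts, a count per gene that this share per promoter does not match. The C/EBP core was found before 5 of the 10 starts against 9.56%, and the sequence TATAAA before 4 against 12.4%. CAAAGTCCA, a strict form of the HNF4 element, was before 0 of the 10 starts and in 0.384% of promoters. CACCC, the core bound by KLF proteins, was before 8 of the 10 starts and in 52% of promoters. AGATAA, which factors of red cell development bind, was before 1 of the 10 starts and in 9.99% of promoters. A match is a description of the letters in this window and not evidence of binding.

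Values are log2 RMA levels per probe set, listed by replicate number. For Alb, which encodes albumin, the main protein of blood plasma, WT TER119+ arrays read 13.48, 13.68, 13.56 and 13.70 and KO TER119+ arrays 13.68, 13.69 and 13.54. WT TER119- arrays read 8.66, 10.42, 10.80 and 11.35 and KO TER119- arrays 9.57, 8.74, 8.37 and 10.35. Every TER119+ array lay above every TER119- array, with a gap of 2.13 between the nearest pair, while WT and KO arrays overlapped within each fraction. Alb was 9.84-fold higher in the WT TER119+ than in the WT TER119- fraction, a log2 difference of 3.30 ± 0.45 (SE; limma, adjusted p = 1.05e-05). Afp encodes alpha-fetoprotein, the fetal relative of albumin that falls silent after birth. Its levels were 12.73, 13.04, 12.79 and 13.02 in WT TER119+ and 13.09, 13.04 and 12.78 in KO TER119+ arrays. TER119- arrays held 7.72, 9.42, 9.90 and 10.33 in WT and 8.88, 8.01, 7.38 and 9.62 in KO. The array order of Alb recurred: replicate 4 was the highest WT TER119- array and replicate 3 the lowest KO TER119- array. The WT difference was 3.56 ± 0.47, or 11.8-fold (adjusted p = 7.14e-06).

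Trf encodes transferrin, the plasma iron carrier that supplies red cell precursors. Arrays of the TER119+ fraction read 12.29, 12.90, 12.45 and 12.90 in WT and 12.80, 12.78 and 12.49 in KO. Those of the TER119- fraction read 7.94, 8.88, 9.33 and 9.58 in WT and 8.54, 7.86, 7.60 and 8.66 in KO. The fractions did not overlap and the genotypes did. Trf differed by 3.70 ± 0.30 in WT, or 13-fold (adjusted p = 1.98e-08). Serpina6 encodes corticosteroid-binding globulin, the carrier of glucocorticoids. It read 13.17, 13.43, 13.21 and 13.43 in WT and 13.41, 13.41 and 13.22 in KO TER119+ arrays. Corresponding TER119- values were 8.40, 10.12, 10.91 and 11.33 in WT and 9.76, 8.64, 8.27 and 10.67 in KO. Its gap between fractions, 1.84, was the smallest of the 10 genes, and its WT difference of 3.12 ± 0.53, or 8.67-fold, was also the smallest (adjusted p = 9.11e-05).

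Ttr encodes transthyretin, which carries thyroid hormone and binds the retinol carrier. Its TER119+ levels were 11.14, 12.03, 11.31 and 11.94 in WT and 11.94, 11.91 and 11.26 in KO. Its TER119- levels were 6.30, 8.20, 8.31 and 9.23 in WT and 7.17, 6.18, 5.70 and 8.01 in KO. Within TER119+ arrays, WT replicates 1 and 3 and KO replicate 3 were the low ones. The difference between WT fractions was 3.59 ± 0.53, or 12.1-fold (adjusted p = 2e-05). Rbp4 encodes plasma retinol-binding protein, the partner of transthyretin. TER119+ arrays read 10.98, 11.49, 11.16 and 11.56 in WT and 11.39, 11.52 and 11.24 in KO. TER119- arrays read 5.44, 6.52, 6.64 and 7.30 in WT and 6.31, 5.61, 5.07 and 6.59 in KO. The fractions were 3.68 apart at their nearest arrays. Rbp4 differed by 4.83 ± 0.34 in WT, or 28.4-fold (adjusted p = 3.35e-09).

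Apoa1 encodes the main protein of high-density lipoprotein. It read 11.78, 12.43, 12.00 and 12.38 in WT and 12.26, 12.18 and 11.82 in KO TER119+ arrays. In TER119- arrays it read 6.61, 7.86, 8.31 and 9.52 in WT and 7.49, 6.76, 6.55 and 8.13 in KO. Genotypes overlapped in both fractions, and the WT fractions differed by 4.07 ± 0.45, or 16.8-fold (adjusted p = 8.44e-07). Apoa2, whose product is another protein of high-density lipoprotein, had the widest TER119- range of the 10 genes. Its values there were 5.45, 7.42, 7.66 and 9.37 in WT and 6.82, 5.84, 5.37 and 7.55 in KO, a span of 15.9-fold, whose low end lay within the range of the array medians (5.28 to 5.43). TER119+ values were 11.46, 12.14, 11.48 and 12.15 in WT and 11.94, 11.98 and 11.58 in KO, a span of 1.62-fold. The WT fractions differed by 4.33 ± 0.60, or 20.1-fold (adjusted p = 1.02e-05). Apob encodes the structural protein of very-low-density and low-density lipoprotein. Its TER119+ arrays held 10.92, 11.74, 11.12 and 11.74 in WT and 11.72, 11.67 and 11.06 in KO. Its TER119- arrays held 4.97, 5.88, 6.70 and 7.23 in WT and 5.52, 5.28, 4.99 and 6.20 in KO. The lowest of these, like the lowest of Rbp4, lay below every array median, where RMA compresses differences, so folds against them may be too small. Apob showed the largest difference of the 10 genes, 5.18 ± 0.38 in WT, or 36.4-fold (adjusted p = 6.61e-09), and ranked 22 of 19938 genes in that comparison.

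Hnf4a, the nuclear receptor that acts in the control of many of these genes, read 8.31, 8.96, 8.15 and 8.77 in WT and 8.76, 8.86 and 8.50 in KO TER119+ arrays. Its TER119- arrays read 5.11, 5.40, 5.38 and 5.53 in WT and 5.24, 5.18, 5.3 and 5.22 in KO. Unlike the secreted products it was nearly level across TER119- arrays, within 0.43. Array medians over all probe sets lay between 5.28 and 5.43, so these values were near the middle of each array and open to the same compression. Detection calls were not used here. The WT difference was 3.19 ± 0.15, or 9.14-fold (adjusted p = 3.99e-11).

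**Figure D1:**
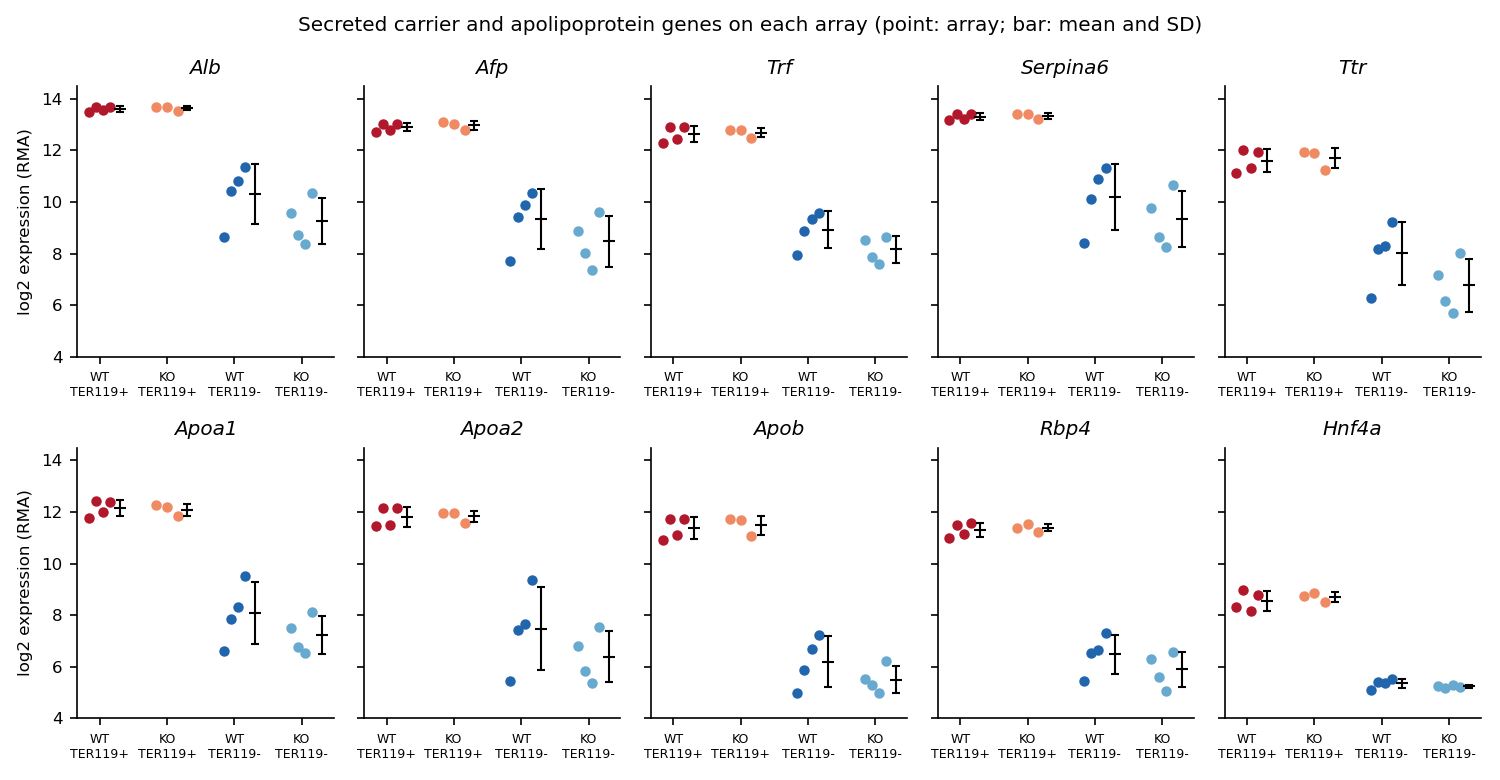
Log2 RMA level (vertical axis) of each of the 10 genes on every array, by genotype and TER119 fraction, with points for arrays and bars for the group mean and SD. TER119+ arrays sit above all TER119- arrays for each gene, and the TER119- points are widely scattered for every gene except Hnf4a.

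Between the WT fractions, 10 of 10 members were higher in TER119+ cells, against 23.5% of all genes. In 10 of 10 the WT arrays of the fractions did not overlap in this direction, against 20.9% of genes. The median member difference was 3.65, against -0.09 over all genes. Between the KO fractions the members again were higher in 10 of 10 cases, against 22.6% of genes, and without overlap in 10 of 10, against 25.2%. Differences ran from 3.47 for Hnf4a to 5.98 for Apob, with a median of 4.69. Without the 3 TER119- arrays that stood apart, 10 of 10 were higher in each genotype, and the differences were 3.30 (Hnf4a) to 5.54 (Apob) with a median of 4.196 in WT and 3.47 to 6.22 with a median of 5.02 in KO. Folds in WT then were 12.6 for Serpina6, 14.7 for Alb, 19.7 for Ttr, 25.8 for Apoa1, 38.0 for Apoa2 and 46.6 for Apob. They rest on WT TER119- replicates 1 and 3 only. The omitted WT replicate 4 was the highest TER119- array for all 10 genes, so higher folds follow in part from its omission. Leaving out WT TER119- replicate 1 alone took Serpina6 to 5.74-fold and Apoa2 to 12.6-fold, and leaving out WT TER119- replicate 4 took Apoa2 to 31.1-fold. A batch that coincided with the fraction cannot be told apart from it, since each fraction was sorted in its own way.

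Other genes of the hepatoblast followed the same direction in part. Of 13 measured surface, keratin and growth genes, 12 were higher in WT TER119+ cells and 0 lower, with a median of 2.44. They included Dlk1, a surface protein used to isolate hepatoblasts (5.13 ± 0.17), Igf2, a fetal growth factor (4.57 ± 0.28), Gpc3, a glypican of fetal liver (4.55 ± 0.29), and Krt18, a keratin of simple epithelia (3.24 ± 0.22). Epcam, at 0.41 ± 0.17, did not pass (adjusted p = 0.0563), but passed under 7 of 17 alternatives (adjusted p 0.0199 to 0.0463). Among 15 other genes of carriers and related binding proteins, not all of them secreted into plasma, 10 were higher and 3 lower, with a median of 1.61. Ahsg, which encodes fetuin-A, differed by 6.22 ± 0.38, the haem carrier Hpx by 5.69 ± 0.21, Ambp by 4.93 ± 0.41 and the fatty acid binding protein Fabp1 by 4.69 ± 0.35. Hp, Orm1 and Orm2, which encode the acute-phase proteins haptoglobin and orosomucoid and are named here after their values were seen, were lower in TER119+ cells, by -4.28 ± 0.25, -1.74 ± 0.16 and -0.83 ± 0.23. Developing neutrophils also make haptoglobin and orosomucoid.

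Of 15 other genes of apolipoproteins and lipoprotein assembly, 11 were higher in WT TER119+ cells and 2 lower, with a median of 1.48. Apom, an apolipoprotein that carries sphingosine phosphate, differed by 5.47 ± 0.20, Apoh by 3.91 ± 0.54, Apoe by 3.53 ± 0.13 and Mttp, which loads lipid onto the Apob product, by 3.21 ± 0.18. The lower pair, named after their values were seen, was Apobec1, which edits Apob mRNA (-0.62 ± 0.13), and Apod (-0.34 ± 0.10). Of 20 liver transcription factors, 14 were higher and 2 lower, with a median of 0.96. Prox1, which hepatoblasts need to migrate, differed by 3.18 ± 0.23, Nr5a2 by 2.18 ± 0.19, Foxa3 by 1.69 ± 0.17 and Creb3l3 by 1.54 ± 0.17. The lower pair, again named after their values were seen, was Hhex (-0.79 ± 0.17) and Zhx2, a repressor of Afp after birth (-0.26 ± 0.11, adjusted p = 0.0464), whose call was lost under 14 of 18 alternatives.

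Enzymes of the mature hepatocyte were divided: of 19 measured, 10 were higher, 1 lower and 8 did not pass, with a median of 0.46. The urea cycle enzymes Cps1 and Otc differed by 4.89 ± 0.34 and 2.98 ± 0.32, and the tyrosine breakdown enzymes Hgd and Hpd by 4.16 ± 0.20 and 3.58 ± 0.32. G6pc, the glucose-releasing enzyme, was the lower gene at -0.27 ± 0.11, and 9 of 17 alternatives lost its call. Of 5 bile duct genes, 0 passed the test in either direction, with a median of -0.03. Jag1, a Notch ligand, had the largest difference among them, 0.40 ± 0.19 (adjusted p = 0.0943), and passed under 4 of 17 alternatives. Without the 3 arrays that stood apart, the counts higher and lower were 12 and 0 for surface and keratin genes, 10 and 3 for carriers, 11 and 2 for apolipoproteins, 13 and 1 for transcription factors, 11 and 1 for enzymes and 0 and 0 for bile duct genes.

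**Figure D2:**
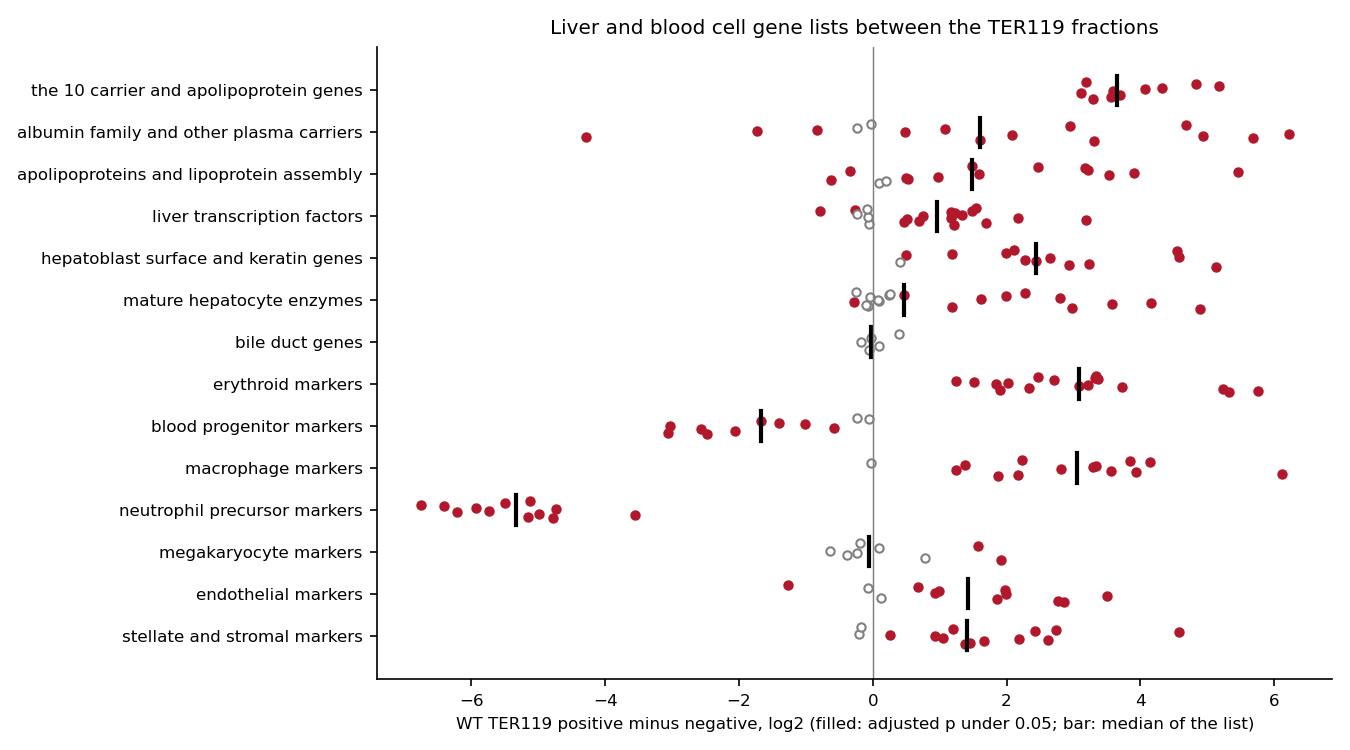
Log2 difference between WT TER119+ and WT TER119- arrays (horizontal axis) for each measured gene of the liver and blood cell lists, with filled points for adjusted p under 0.05 and a bar at each list's median. The 10 carrier and apolipoprotein genes lie between 3.12 and 5.18, and the neutrophil precursor markers all lie below 0.

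Markers of other cell types moved between the WT fractions as well. Beside the 17 erythroid markers, led by Alas2 (5.77), Slc4a1 (5.33) and Epb42 (5.24), macrophage markers were higher in 13 of 14 cases, led by Cd5l (6.12), Slc40a1 (4.14) and Marco (3.94). Endothelial markers were higher in 9 of 12 and lower in 1, led by Cdh5 (3.51). Fcgr2b (-1.27) was the lower gene, and Pecam1 (0.129) and Emcn (-0.065) did not pass. Stellate and stromal markers were higher in 12 of 14, led by Reln (4.58). Lrat (-0.20) and Ngfr (-0.17) did not pass, and Des was at only 0.26. Fcgr2b, Pecam1, Emcn, Lrat, Ngfr and Des are named after their values were seen. Neutrophil precursor markers were lower in 12 of 12, led by S100a9 (-6.76), and blood progenitor markers in 9 of 11, led by Cd34 (-3.06). Megakaryocyte markers were higher in 2 of 8, Itga2b (1.92) and Vwf (1.57). The mean log2 level of the macrophage list ranged from 8.19 to 8.47 over WT TER119+ and from 5.40 to 5.49 over WT TER119- arrays. For stellate and stromal markers these ranges were 6.10 to 7.14 and 4.87 to 5.25, for endothelial markers 6.73 to 7.70 and 5.59 to 6.01, and for neutrophil precursor markers 5.03 to 5.43 and 10.42 to 10.80. Without the 3 arrays that stood apart, 17 of 17 erythroid, 13 of 14 macrophage, 8 of 12 endothelial and 12 of 14 stellate and stromal markers were higher, and 12 of 12 neutrophil precursor and 10 of 11 progenitor markers lower. Log2 RMA values do not reach 0, so no marker could be called absent. The part of these other cells in the members' differences was not tested.

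The spread of the members within the TER119- fraction was far above that of most genes. Within groups their TER119- SD had a median of 1.01 on the log2 scale, against 0.19 over all genes, and 8 of 10 were among the 100 genes with the largest SD. Apoa2 ranked 4 of 19938 (SD 1.33), Serpina6 ranked 7, Ttr 9, Afp 14, Alb 18 and Apoa1 22. Trf ranked 178, and Hnf4a ranked 15527 (SD 0.13). Such spread was not particular to the members: the 12 genes most like them, named below, had TER119- SDs from 0.36 (Nat1) to 1.28 (Fgg). The secreted products moved together across arrays, so their ranks are not separate observations. Without the 3 arrays that stood apart, the median member SD was 0.91 against 0.12 over all genes, 6 of 10 members were among the 100, and the span was 4.89-fold for Apoa2 and 6.24-fold for Serpina6, the widest. In TER119+ arrays the median SD was 0.27, against 0.14 over all genes, and Alb spanned 1.17-fold there against 7.87-fold in TER119- arrays. Its highest TER119+ value of 13.70 was close to the highest value of the whole table, 14.26, and whether saturation narrowed this span was not tested.

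The same arrays were high or low for nearly all members. WT replicate 4 was the highest TER119- array for all 10 genes. The lowest 3 were KO replicates 2 and 3 and WT replicate 1 for 9 of 10, Hnf4a being the exception. In the TER119+ fraction WT replicates 1 and 3 and KO replicate 3 were the lowest 3 arrays for all 10 genes. Across the 8 TER119- arrays, the other secreted products followed Alb with Pearson r from 0.962 (Apob) to 0.995 (Ttr) and Spearman rho from 0.952 to 0.976, with adjusted exact permutation p from 0.000179 to 0.000279 for r. Hnf4a followed it less closely, at r = 0.763 (adjusted exact permutation p = 0.0299) and rho = 0.714 (0.0798). Without the 2 arrays farthest from the median of Alb, KO replicate 3 and WT replicate 4, r was 0.857 for Hnf4a and 0.943 to 0.993 for the others. Over the 5 arrays that did not stand apart, r was 0.651 for Hnf4a and 0.95 to 0.996 for the others. Taken as deviations from each group's mean, r was 0.69 for Hnf4a and 0.953 to 0.995 for the others.

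Across the 7 TER119+ arrays r with Alb was 0.931 (Apoa1) to 0.986 (Apob) for the secreted products, with adjusted exact permutation p from 0.00476 to 0.00893. Spearman rho there was 0.679 to 0.929, and its adjusted exact permutation p passed 0.05 for Serpina6, Apoa2, Apob and Rbp4 but not for Afp, Trf, Ttr and Apoa1. Hnf4a had r = 0.848 (adjusted exact permutation p = 0.019) and rho = 0.643 (0.139). Without WT replicate 1 and KO replicate 3, which lay farthest from the median, r over the remaining 5 arrays was 0.793 to 0.983. The p-values of both fractions were adjusted over 18 relations, and all genes of an array share its RNA sample and its normalisation.

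By Pearson r a few lists of other cell types moved with or against Alb across arrays, and none of the 14 relations passed by rank. In TER119- arrays the mean of the erythroid list ran against Alb (r = -0.84, adjusted exact permutation p = 0.0461, rho = -0.857), and the stellate and stromal list ran with it (r = 0.875, adjusted exact permutation p = 0.025, rho = 0.762). Rank correlations of these 2 lists did not pass, with adjusted exact permutation p of 0.0749 and 0.129, and the erythroid r was -0.638 without the 2 farthest arrays. Macrophage and megakaryocyte lists gave r = 0.793 and 0.807, each with adjusted exact permutation p = 0.0725. Over TER119- arrays the stellate and stromal mean lay between 4.86 and 5.25, and the macrophage mean between 5.34 and 5.49. These levels were below or near the array medians (5.28 to 5.43), where RMA compresses differences, so their shifts were small. Neutrophil precursor and endothelial lists gave r = 0.654 and 0.705, with adjusted exact permutation p of 0.174 and 0.128. For the blood progenitor list r was -0.295 (adjusted exact permutation p = 0.655). In TER119+ arrays the stellate and stromal list had r = 0.959 with Alb (adjusted exact permutation p = 0.025). Its rank correlation did not pass (rho = 0.929, adjusted exact permutation p = 0.0749), and neither did the other 6 lists by r. Over the 5 TER119- arrays that did not stand apart, r with Alb was -0.713 for erythroid markers and 0.861 to 0.934 for the other 6 lists. Blood progenitor markers were among these at 0.886, against -0.295 over all 8 arrays. These 14 relations were chosen after the data were seen, and the part of other cells in the members' array order was not tested. WT replicate 3, the second highest TER119- array for Alb at 10.80, lay at -17.9 on the leading component, among the 5 arrays that did not stand apart.

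**Figure D3:**
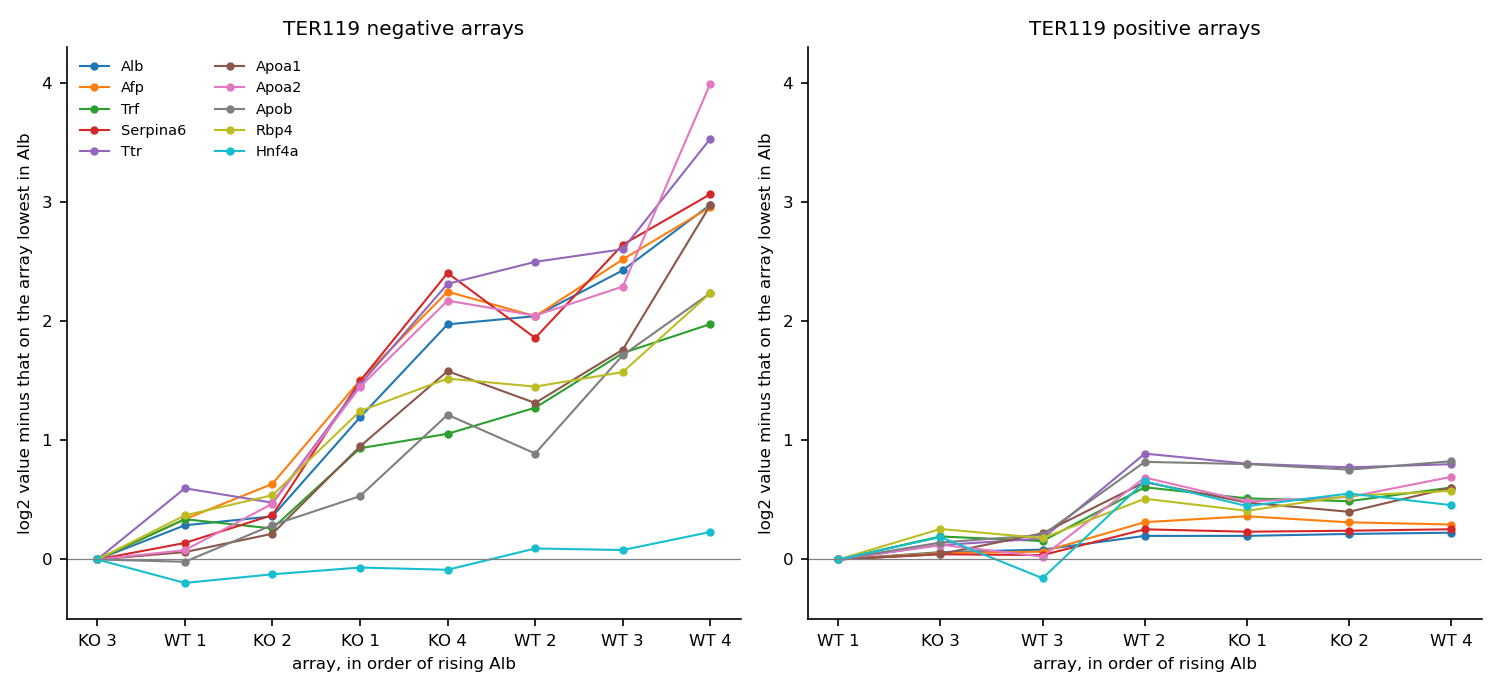
Log2 level of each gene minus its level on the array with the lowest Alb (vertical axis), over TER119- arrays (left) and TER119+ arrays (right) in order of rising Alb. In TER119- arrays the secreted products climb together, Apoa2 by 3.99 at most, while Hnf4a stays within 0.43.

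By deviation from the group mean over all 15 arrays, the 12 named genes most like the members' mean were Ahsg (r = 0.995), Itih2 (0.993), Fgg (0.992), Fgb (0.991), Vtn (0.981), Fga (0.977), Kng1 (0.977), Fabp1 (0.963), Ambp (0.957), Rgn (0.954), Igf2 (0.944) and Nat1 (0.944). Fga, Fgb and Fgg encode the 3 chains of fibrinogen, and Vtn and Kng1 encode the plasma proteins vitronectin and kininogen. WT TER119+ levels were higher than WT TER119- levels for 11 of these 12, by 3.48 (Rgn) to 6.22 (Ahsg), and lower for Nat1 (-0.66, adjusted p = 0.00508). The r values describe these arrays and carry no test.

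In TER119+ cells, WT and KO arrays overlapped for every member. Differences of KO from WT lay between -0.06 (Apoa1) and 0.16 (Hnf4a), with a median of 0.07 against -0.01 over all genes. None of the 10 members was called (adjusted p = 1 for each), against 1.02% of genes, and 0 of 10 had an unadjusted p under 0.05, against 5.33%. Arrays failed to overlap for 0 of 10 members, against 10.1% of genes. The 95% interval for Alb was -1.01 to 1.07, and for Apoa2, the widest, -1.34 to 1.39. These intervals carry the spread of the TER119- arrays, since all groups shared 1 estimate. With the 7 TER119+ arrays fitted alone, the interval for Alb was -0.169 to 0.233 and that for Ttr, the widest, -0.445 to 0.645. None of the other apolipoprotein, transcription factor, surface, enzyme and bile duct genes was called in this comparison. Among the other carriers Igfbp1, which encodes an insulin-like growth factor binding protein and is named after its value was seen, was higher in KO by 0.99 (adjusted p = 0.0264). That call was lost when KO replicate 1 (adjusted p = 0.0941), KO replicate 3 (0.212), WT replicate 1 (0.0745) or WT replicate 4 (0.0772) was left out, and with the 7 TER119+ arrays fitted alone (0.0861).

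In TER119- cells, all 10 members had lower means in KO than in WT arrays, without passing the test. Log2 differences were -1.24 ± 0.53 for Ttr, -1.08 ± 0.60 for Apoa2, -1.05 ± 0.45 for Alb, -0.87 ± 0.47 for Afp, -0.86 ± 0.53 for Serpina6 and -0.84 ± 0.45 for Apoa1. Trf was at -0.77 ± 0.30, Apob at -0.70 ± 0.38, Rbp4 at -0.58 ± 0.34 and Hnf4a at -0.12 ± 0.15. Ttr ranked 4, Apoa2 9 and Alb 10 from the lowest of 19938 differences, and the members' median of -0.85 compares with -0.02 over all genes. Yet 0 of 10 were called (adjusted p 0.653 to 0.798), against 0.0853% of genes. Alb, Trf and Ttr had a limma p under 0.05 before adjustment with a lower KO mean, so 3 of 10 against 3.84% of genes. That fit shares its spread with the tighter TER119+ arrays. Across TER119- arrays Trf and Ttr followed Alb at r = 0.983 and 0.995. The secreted products' ranks, counts and shared direction therefore largely repeat the same array pattern and are not separate observations. With the 8 TER119- arrays fitted alone, all 10 intervals included 0, at -2.319 to 0.217 for Alb, -1.551 to 0.016 for Trf and -2.637 to 0.15 for Ttr. WT and KO arrays overlapped for all 10, against 2.63% of genes without overlap in either direction. With all arrays in the fit the interval was -2.02 to -0.09 for Alb and -2.34 to 0.18 for Apoa2.

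The value in TER119- cells depended on single arrays. The members' median was -1.37 without WT replicate 1, -0.46 without WT replicate 4 and -0.55 without KO replicate 3, and the lowest adjusted p of any member with an array left out was 0.15. Without the 3 arrays that stood apart it was -0.61, with 0 of 10 called. By Xist and Y-linked genes, all 4 WT TER119- arrays were male, while 3 of the 4 KO TER119- arrays were female. With sex in the model the median was -0.93, again with 0 called. In each list of other cells 0 genes were called. Neutrophil precursor, endothelial and megakaryocyte markers had lower KO means in 12 of 12, 12 of 12 and 8 of 8 cases. Their medians were -0.30, -0.21 and -0.24, against -0.02 over all genes. Without the 3 arrays that stood apart these medians were -0.33, -0.28 and -0.37. Stellate and stromal, blood progenitor and macrophage markers were mixed, with lower KO means in 11 of 14, 8 of 11 and 8 of 14 cases. Erythroid markers had higher KO means in 17 of 17, with a median of 0.29 that was 0.06 without the 3 arrays that stood apart, and their mean level ranged from 7.86 to 8.54 in WT and from 8.18 to 8.83 in KO TER119- arrays. The part of these lists in the members' values, like that of sex, was not tested further.

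**Figure D4:**
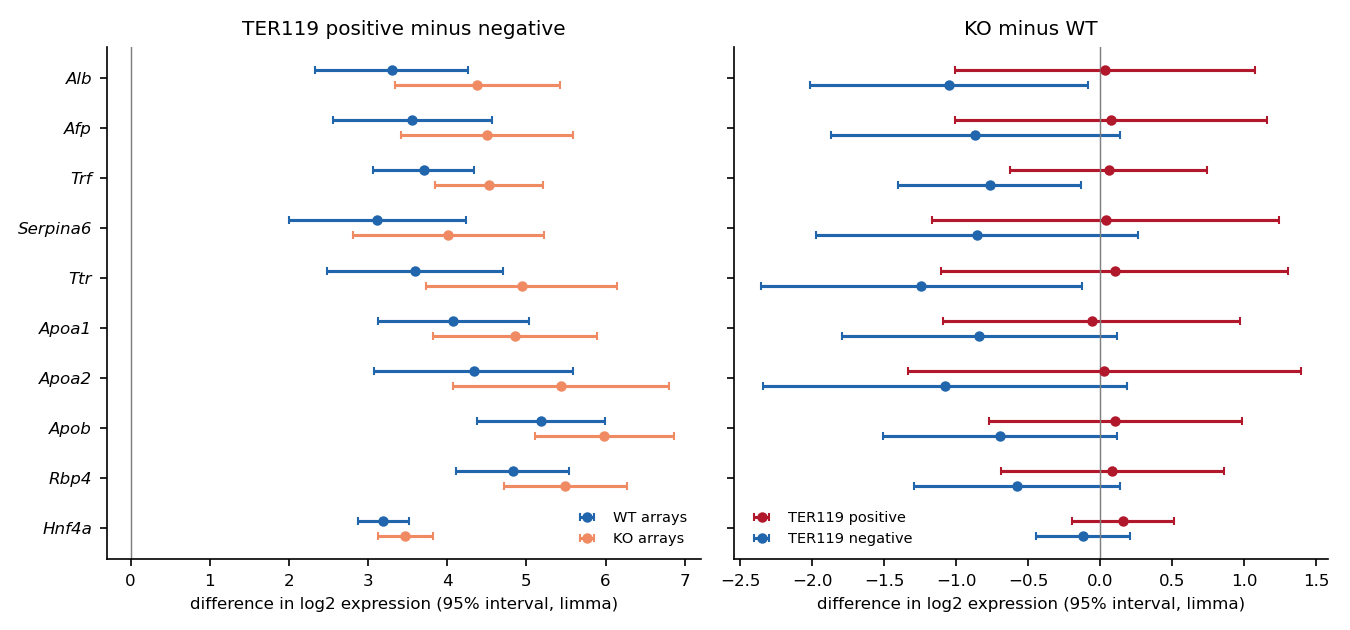
Log2 differences of the 10 genes with 95% limma intervals (horizontal axis), between TER119 fractions by genotype (left) and between KO and WT by fraction (right). Fraction intervals all lie above 0, KO differences in TER119+ cells centre near 0, and in TER119- cells they run from -1.24 to -0.12 with wide intervals.

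The order of group means was KO TER119+, WT TER119+, WT TER119- and KO TER119- for 9 members, and for Apoa1 the TER119+ pair was exchanged. Between genotypes within a fraction 0 of 10 members passed the adjusted threshold, whereas 10 of 10 passed between the fractions of each genotype. The difference between the genotype effects of the fractions was 0.28 (Hnf4a) to 1.34 (Ttr), with 0 of 10 members called (adjusted p = 0.999) against 0.436% of genes, and 0 of 10 with an unadjusted p under 0.05 against 4.27%. For Ttr its interval was -0.30 to 2.98. Without the 3 arrays that stood apart, it was 0.163 to 1.052 over the members, with a median of 0.686 against 0.86 over all arrays and 0 called.

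Genes beside the members on their chromosomes mostly did not share their difference. Within 4 places on each side, 68 of 72 neighbouring genes were measured. Of these, 19 were higher and 18 lower in WT TER119+ cells, with a median of -0.07. Over all 19938 genes, 4693 were higher and 5793 lower. Without the 3 arrays that stood apart, 20 neighbours were higher and 21 lower, against 4520 and 5459 of all genes. Only Afm and 1300017J02Rik were higher by 3 or more with all arrays in the fit. Afm, which encodes afamin of the albumin family and follows Alb and Afp, was at 3.31 ± 0.24, whereas the next gene, Albfm1, was at 0.36 ± 0.12. 1300017J02Rik, a relative of Trf that lies next to it, was at 4.71 ± 0.17. In the cluster of Apoa1 (4.07) the other genes differed less: Apoc3 was at 0.50 ± 0.09 (adjusted p = 0.000209), Apoa4 at 0.09 ± 0.11 (0.513) and Apoa5 at 0.20 ± 0.11 (0.139). Apoa5 passed with quantile normalisation (0.301, limma adjusted p = 0.00995). Group means of Apoc3, Apoa4, Apoa5 and Albfm1 lay between 4.47 and 5.50. That is near or below the array medians (5.28 to 5.43), where RMA compresses differences, so their small differences are of limited meaning. Beside Serpina6, Serpina10 was at 2.53 ± 0.21.

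**Figure D5:**
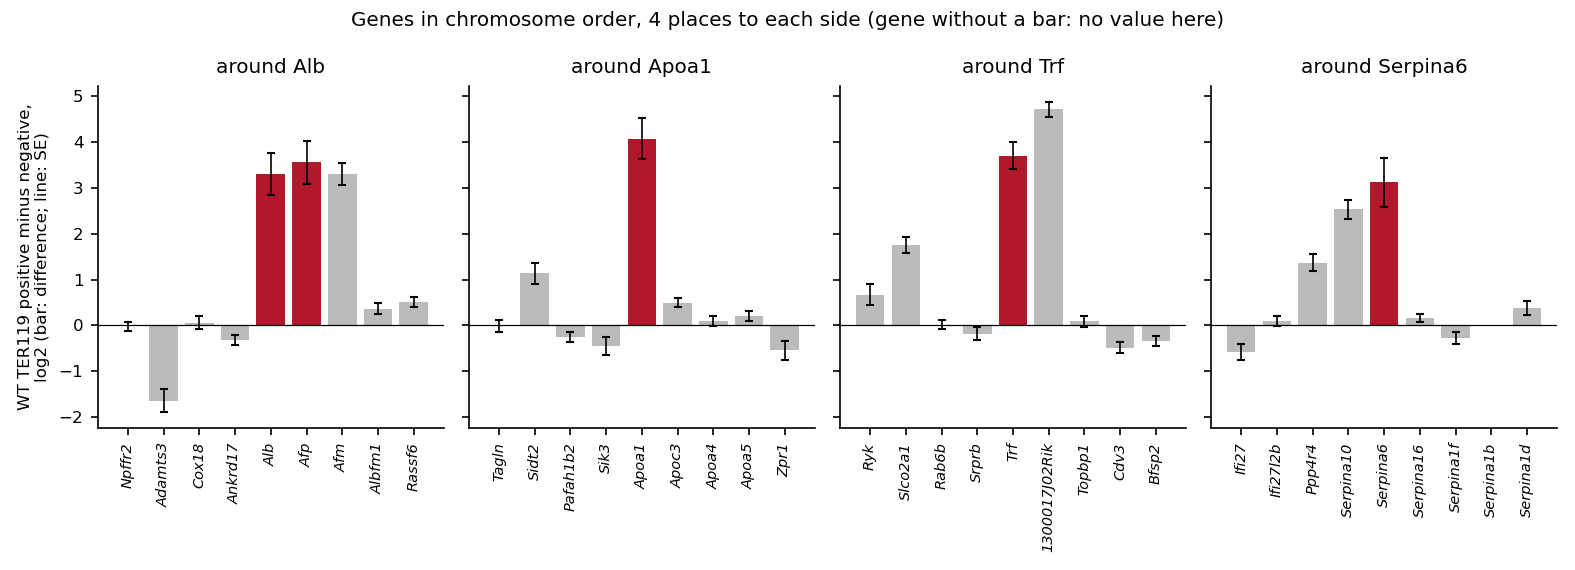
Log2 difference between WT TER119+ and WT TER119- arrays (bars, with the limma SE as lines) for the genes up to 4 places to each side of Alb, Apoa1, Trf and Serpina6 in chromosome order, with the members in red. Alb, Afp and Afm rise above 3 together, while Apoc3, Apoa4 and Apoa5 beside Apoa1 stay at or below 0.50. Levels of Apoc3, Apoa4 and Apoa5 were near or below the array medians.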

How the data were processed

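The authors deposited log2 expression values per probe set of 15 Affymetrix MoGene-1_0-st-v1 arrays, 35399 probe sets between 2.91 and 14.26. RMA and Partek are the tools named, per the submitters' processing notes, with no version given in the sources used here. Robust multi-array averaging (RMA) subtracts background, equalises the arrays' distributions and summarises probes, which compresses dim differences. Probe sets with 1 symbol in the platform's gene table were kept, the one with the highest mean per gene (19938 genes); 1621 with several symbols and 11989 unnamed ones were not used.

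Groups came from the sample titles. All arrays entered limma 3.58.1 (R 4.3.3) with a mean per group, no covariates and no filter, with 11 residual and 4.91 prior degrees of freedom. P-values were adjusted across all genes by Benjamini-Hochberg, threshold 0.05, 2-sided. Correlations used exact permutation tests (scipy 1.17.1), 2-sided. The code was tested on simulated data. Promoter sequences and gene order came from RefSeq (GRCm38.p6).

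Members and lists were chosen with earlier results of these data known. Named genes were all members, up to 4 genes per liver list and 3 per other list with the largest WT fraction difference, and the 12 most and 8 least like the members. Alternatives were another probe set rule, a dim-gene filter, quantile normalisation, median centring, limma's trend with robust fitting, array weights, the contrast's groups only, replicate blocks, sex, and each array left out. The values without the 3 arrays that stood apart were chosen after seeing the data.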

Additional observations from a re-analysis of the deposited data

How the results depend on the processing

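Between fractions, 10 of 10 members were called in WT and in KO under every alternative run, and 0 of 10 in the KO comparisons and their difference. All changes of sign were in KO against WT in TER119+ cells, where values lay near 0. With quantile normalisation Alb was -0.014 and Apoa2 -0.041, with sex in the model Serpina6 was -0.006 and Apoa2 -0.003, and with the replicate block Apoa1 was 0.23. Leaving out 1 array gave -0.01 to 0.08 for Alb, -0.057 to 0.16 for Trf, -0.009 to 0.101 for Serpina6, -0.055 to 0.323 for Ttr, -0.183 to 0.071 for Apoa1, -0.09 to 0.154 for Apoa2, -0.051 to 0.315 for Apob and -0.022 to 0.17 for Rbp4. The cause was not tested. Same-numbered arrays correlated at -0.38 to 0.65 in their deviations from group means. The labels do not say whether equal numbers share a litter, day or batch, and these correlations cannot settle it. The replicate block changed no member's call. It moved the members' KO against WT differences in TER119+ cells to between 0.2 and 0.412 (median 0.303 against 0.066). It took the genes called in TER119+ KO against WT from 203 to 186. Over all genes, that count was 386 with array weights and 350 with the contrast's groups only. In TER119- cells 17 genes were called (15 higher, 2 lower), 18 and 0 with median centring, 31 with array weights, 4 with the contrast's groups only, 7 with sex in the model, 8 without the 3 arrays that stood apart, and 8 to 24 with 1 array left out, with 8 without KO replicate 3 or WT replicate 2. For the difference of genotype effects 87 became 56 under the dim-gene filter, which tests fewer genes. A fit of that contrast's groups only is the fit of all arrays, and was not run separately. Of 1228 values of 67 other named genes under alternatives, 0 changed sign, 29 lost and 14 gained a call. Median centring moved the median of all genes from -0.09 to -0.14 in the WT and from -0.06 to -0.16 in the KO fraction comparison.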

Other observations

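The genes least like the members, by deviation from the group mean over all 15 arrays, were Dtnb (r = -0.975), Eaf1 (-0.959), Ppm1l (-0.942), Setd1b (-0.941), Cecr2 (-0.94), Rbm27 (-0.94), Ppp4r3a (-0.933) and Tmem41a (-0.932). The r values carry no test. Dtnb, which encodes dystrobrevin beta, was at 8.13 in WT TER119+ and 6.45 in WT TER119- arrays, so it was higher in the same fraction as the members while running against them within groups.

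Sidt2, which lies 3 places from Apoa1 and encodes a lysosomal membrane protein, was the only measured neighbour of a member called between genotypes, and is named after its value was seen. It was higher in KO than in WT by 2.43 in TER119+ cells (adjusted p = 1.63e-05) and by 2.27 in TER119- cells (adjusted p = 0.000154). Apoa1 itself was at -0.06 and -0.84 in these comparisons and was not called. Leaving out each array in turn kept the difference of Sidt2 between 2.36 and 2.53 in TER119+ and between 2.04 and 2.42 in TER119- cells, where it was 1.99 without the 3 arrays that stood apart.

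By Dixon's test an array was flagged in 0 of 30 member groups of 4, where chance would give about 1.5 over separate tests. These tests were not separate, since the members followed one another across the same arrays. With 4 values the test has little power, so it does not show that no array was outlying. The KO TER119+ group of 3 arrays was not tested.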
